A study of Mus musculus with 12 samples.

Results

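The genes of the proteasome were followed through the polysome and RNP pools of mouse oocytes. Members were the rows of the deposited table whose symbol is Psm, a letter from a to g and a number. The rule found 50 of the 24259 genes in the table. *Psmc3ip*, which encodes a meiotic recombination factor and only shares the letters, was set apart, so 49 proteasome genes remained. They comprised 7 genes of the 20S alpha ring, the testis-type alpha gene *Psma8*, 4 non-catalytic and 3 constitutive catalytic genes of the beta ring and 4 alternative catalytic genes. A further 6 genes encode ATPases of the 19S base, 3 its other subunits, 8 the 19S lid and 3 its assembly chaperones. The remaining 5 activator genes, 1 inhibitor gene and 4 genes of 20S assembly chaperones complete the set.

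Germinal vesicle (GV) stage oocytes came from WT mice and from mice homozygous for *Lsm14b* tm1a(KOMP)Mbp, a reporter-tagged insertion in the gene of an oocyte RNA-binding protein, hereafter KO. Females of both genotypes were 3 weeks old and had received 5 IU of PMSG 46 h earlier. Lysate of about 1500 oocytes was run through a sucrose gradient and cut into 28 fractions, of which 1 to 10 formed the RNP pool and 11 to 28 the polysome pool. Each genotype and pool had 3 libraries, 12 in all. The insertion is in every cell of the animal and not in the oocyte alone. The labels number 3 replicates in each group without naming separate animals, so the p-values below measure the spread between these libraries, which may be technical.

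The proteasome degrades proteins tagged with ubiquitin. Its 20S core is a barrel of alpha rings, which gate the entry, around beta rings, which hold the proteolytic sites. The 19S particle binds ubiquitin, removes it and unfolds the substrate with a ring of ATPases. In oocytes, degradation of cyclin B1 and securin by this route drives the exit from metaphase, and a fully grown oocyte makes these proteins from stored mRNA. Messages bound by several ribosomes sediment in the polysome pool, and those held in light ribonucleoprotein particles, with few or no ribosomes, stay in the RNP pool.

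Values are FPKM, by definition the fragments of a gene per kb of its transcript and relative to all mapped fragments of the same library. They give a transcript's share of its pool and not the amount of RNA, and differences are on the log2(FPKM + 1) scale with the standard error (SE). In bulk samples such as these, a change in the number of cells of a type and a change in RNA per cell cannot be told apart. Depth, estimated from the steps of low values, was 4.94 to 7.84 M fragments per library (M, mega). KO polysome replicate 2 stood apart, with 34.7% of its summed FPKM in 10 genes, led by *Mir300*, against 11.6% to 14.7% in the other libraries. *Lsm14b* was at 27.4 to 34.6 FPKM in WT RNP, 11.3 to 15.3 in WT polysomes and 0 to 0.893 in the KO libraries. The 12 oocyte markers summed to 8052 to 9733 FPKM in RNP and 25560 to 31240 in polysomes.

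Most proteasome messages were present in every library, and the alternative subunits of immune and germ cells were near 0. Of the 49 genes, 37 had at least 1 FPKM in each of the 12 libraries and 22 had at least 10. A total of 42 reached 1 FPKM in at least 3 of the 12 libraries, and 40 could be tested in all 5 comparisons, since each comparison took only genes at 1 FPKM or more in at least 3 of its own libraries. Exon sequence of 14 genes overlapped another annotated gene, and without strand their reads cannot be told apart. The 7 genes that did not reach this level were *Psma8*, *Psmb8*, *Psmb9*, *Psmb10*, *Psme1*, *Psme2* and *Psmg2*.

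**Figure D1:**
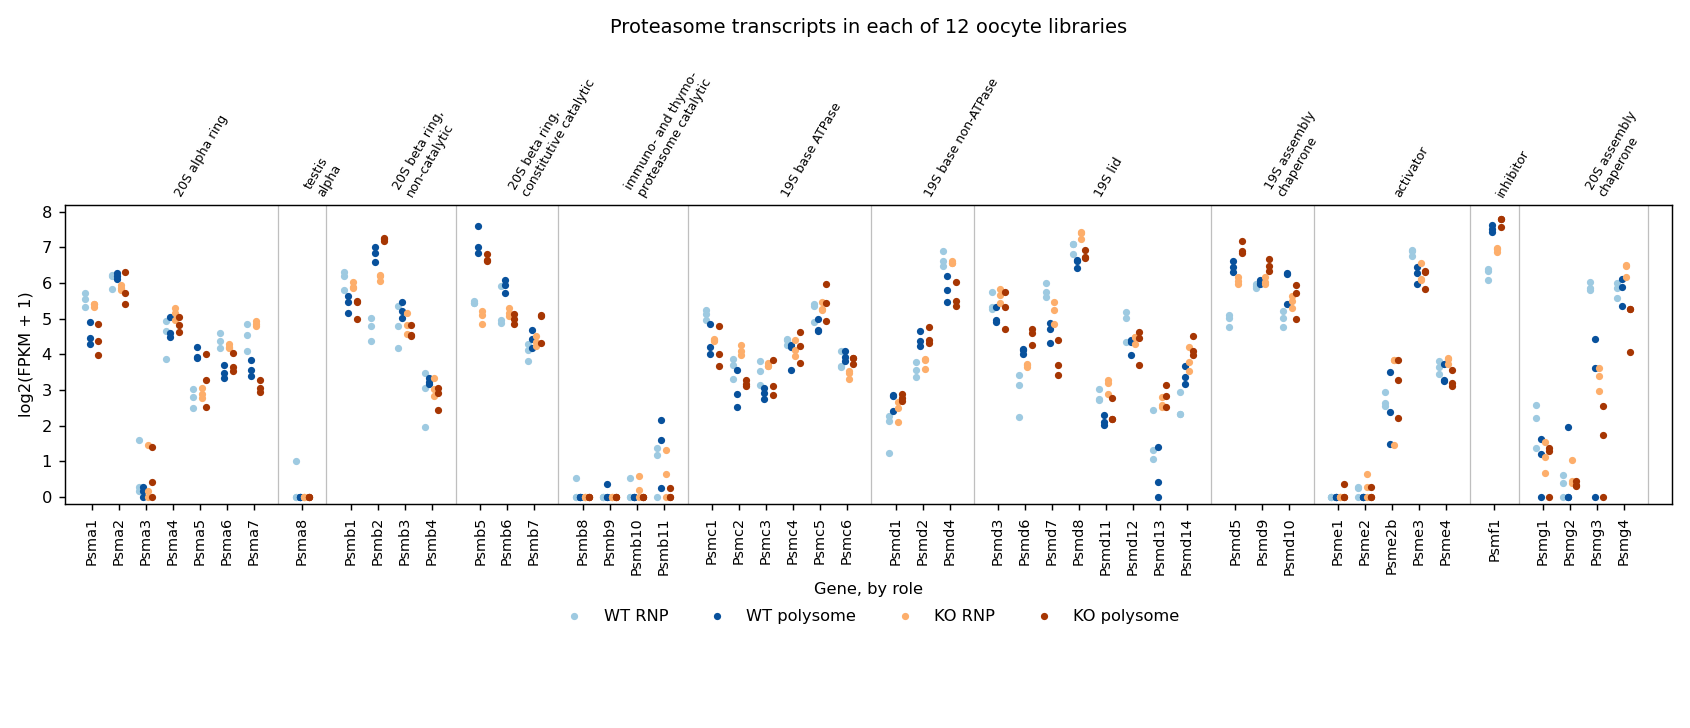
Each point is 1 library, placed by its log2(FPKM + 1) on the y axis, with the 49 proteasome genes on the x axis in the order of their roles and the 4 groups in 4 colours. Psmd8, Psmf1 and Psmd4 lie near the top, while Psma8, Psmb8 to Psmb10, Psme1 and Psme2 lie at or close to 0.

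In WT RNP the highest mean levels were those of the lid gene *Psmd8* (128 ± 14.3 FPKM, SD, n = 3), the activator gene *Psme3* (116 ± 7.35 FPKM, SD, n = 3) and the ubiquitin receptor gene *Psmd4* (102 ± 15.6 FPKM, SD, n = 3). In WT polysomes they were those of the inhibitor gene *Psmf1* (183 ± 11.9 FPKM, SD, n = 3), the catalytic gene *Psmb5* (145 ± 43.3 FPKM, SD, n = 3) and the beta ring gene *Psmb2* (112 ± 15.7 FPKM, SD, n = 3). The spreads of neighbours in both orders overlapped. In KO polysomes *Psmf1* was again highest (209 ± 18.4 FPKM, SD, n = 3), followed by *Psmb2* (149 ± 3.66 FPKM, SD, n = 3) and *Psmd5* (125 ± 15.7 FPKM, SD, n = 3), and here the libraries of neighbours in the order did not overlap.

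Subunits that enter the particle in equal numbers differed widely in message level. Within the alpha ring, group means in WT RNP ran from 0.798 FPKM for *Psma3* to 67.6 FPKM for *Psma2*, with a median of 22.3. *Psma3* was listed at 0 to 2.05 FPKM in all 12 libraries. Its locus in the table runs past the gene to position 71015823 of chromosome 12 (mm10) and is shared with 3110056K07Rik, so this value may not be the level of the message. The deposited locus of *Psma6* also runs past its gene, on both sides. Among the 6 base ATPases, the means in WT RNP ran from 10.5 (*Psmc3*) to 37.0 FPKM (*Psmc5*). In the lid they ran from 2.32 (*Psmd13*) to 128 (*Psmd8*).

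The interferon-inducible catalytic genes *Psmb8*, *Psmb9* and *Psmb10* never exceeded 0.497 FPKM, and 31 of their 36 values were 0. *Psmb8* was at 0.464 FPKM in 1 WT RNP library and *Psmb9* at 0.299 in 1 WT polysome library. *Psmb10* was at 0.442 in 1 WT RNP library and at 0.497 and 0.140 in 2 KO RNP libraries, and the other values of these genes were listed at 0. *Psmb11*, the thymus-specific catalytic gene, was at 1.26, 0 and 1.58 FPKM in WT RNP, 2.05, 3.50 and 0.186 in WT polysomes, 1.51, 0.576 and 0 in KO RNP and 0.187, 0 and 0 in KO polysomes. These values overlapped between all groups. *Psma8* was at 1.00 FPKM in 1 WT RNP library and at 0 in the other 11. The paired activator genes *Psme1* and *Psme2*, which are also inducible by interferon, stayed at or below 0.581 FPKM. The deposited locus of *Psme1* runs past the gene to position 55585254 of chromosome 14, so its values may not be the level of the message. *Psme1* was at 0.293 in 1 KO polysome library and at 0 in the other 11, and *Psme2* was at 0.199 and 0.222 in 2 WT RNP libraries, 0.581 and 0.218 in 2 KO RNP libraries and 0.225 in 1 KO polysome library, with 0 in the rest. *Psme2b*, a near-copy of *Psme2* that overlaps 9930111J21Rik1 on the same strand, was at 4.87, 6.66 and 5.24 FPKM in WT RNP, 10.3, 4.24 and 1.82 in WT polysomes, 13.2, 1.77 and 13.3 in KO RNP and 8.80, 3.64 and 13.5 in KO polysomes, and its values are uncertain because reads may be shared between copies. Of the 10 leukocyte markers, *Ptprc*, *Cd52* and *Adgre1* were at 0 in every library, and the 10 summed to 1.78 to 27.3 FPKM.

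The 3′ ends of the messages are shown because oocytes use elements there to hold and release stored mRNA. Sequences come from the principal GENCODE M21 transcript (GRCm38, the build called mm10 by the authors), on the strand of the mRNA. The cytoplasmic polyadenylation element (CPE) was searched as TTTTAT or TTTTAAT on the mRNA strand. The search covered the last 100 bases of the 3′ untranslated region (UTR), or all of a shorter one. A CPE was found in 6 of the 41 proteasome genes tested between the WT pools (14.6%). It was found in 19.7% of the 8903 genes tested there with a transcript model. The 6 were *Psma1*, *Psma5*, *Psmb1*, *Psmb3*, *Psmg1* and *Psmg3*. In the windows of 30 bases below, capitals mark the CPE, which in *Psmb1* overlaps the polyadenylation signal AATAAA.
Psma1, chr7:114264659-114264688, minus strand: ctataccaatgtTTTTATatgaagaaaata
Psmb1, chr17:15475028-15475057, minus strand: tttttgcttttTTTTAATaaacttctgttc
Psmg3, chr5:139823620-139823649, minus strand: gtgggaagatttTTTTATtaaaaataaatc
Psma5, chr3:108279910-108279939, plus strand: gtgtgtgtgtttTTTTATgaagtctgtaca

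For comparison, the windows below come from *Psmb5*, called higher in polysomes in both genotypes, and *Psmd4*, called higher in RNP in both. Neither holds the CPE letters in the part of its 3′ UTR that was searched. Capitals mark the polyadenylation signal AATAAA, searched in the last 50 bases of the 3′ UTR, or all of a shorter one. It was found in 31 of the 41 proteasome genes (75.6%) and in 63.3% of the genes tested with a transcript model.
Psmb5, chr14:54614124-54614153, minus strand: ctccatggctatAATAAAtaatagtacctc
Psmd4, chr3:95032706-95032735, minus strand: cctttatgatggAATAAAgcttggcaagtt

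In WT oocytes some proteasome messages were higher in polysomes and others in RNP. Of 41 genes tested between the WT pools, 6 were higher in polysomes and 4 higher in RNP at an adjusted p under 0.05, which is 24.4% of the members beside 14.7% of all 9574 genes. The median difference, polysome minus RNP, was -0.20 for the members and -0.09 for all genes, and that of the members was -0.08 without WT polysome replicate 3 and -0.11 without WT RNP replicate 1. In KO oocytes 7 were higher in polysomes and 9 in RNP, 40% of 40 members beside 29.2% of all 9851 genes, with medians of -0.17 and -0.04, the former being -0.09 without KO polysome replicate 2. The pool differences of the 40 members tested in both genotypes had the same sign in 31 (77.5%, against 73.7% of 8999 genes). They correlated across genes with a Spearman rho of 0.76, and 0.61 over all genes, a description since genes are not replicates. Of the 10 WT calls, 7 (70%) were also called in KO, where they made 43.8% of the calls, all 7 in the same direction. The number of calls depends on the spread between replicates, which was wider in WT. Replicate libraries correlated at 0.883 to 0.885 in WT polysomes and 0.907 to 0.932 in WT RNP. In KO these were 0.933 to 0.936 and 0.96 to 0.962. The absolute pool difference was smaller in KO than in WT for 27 of the 40 members.

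**Figure D2:**
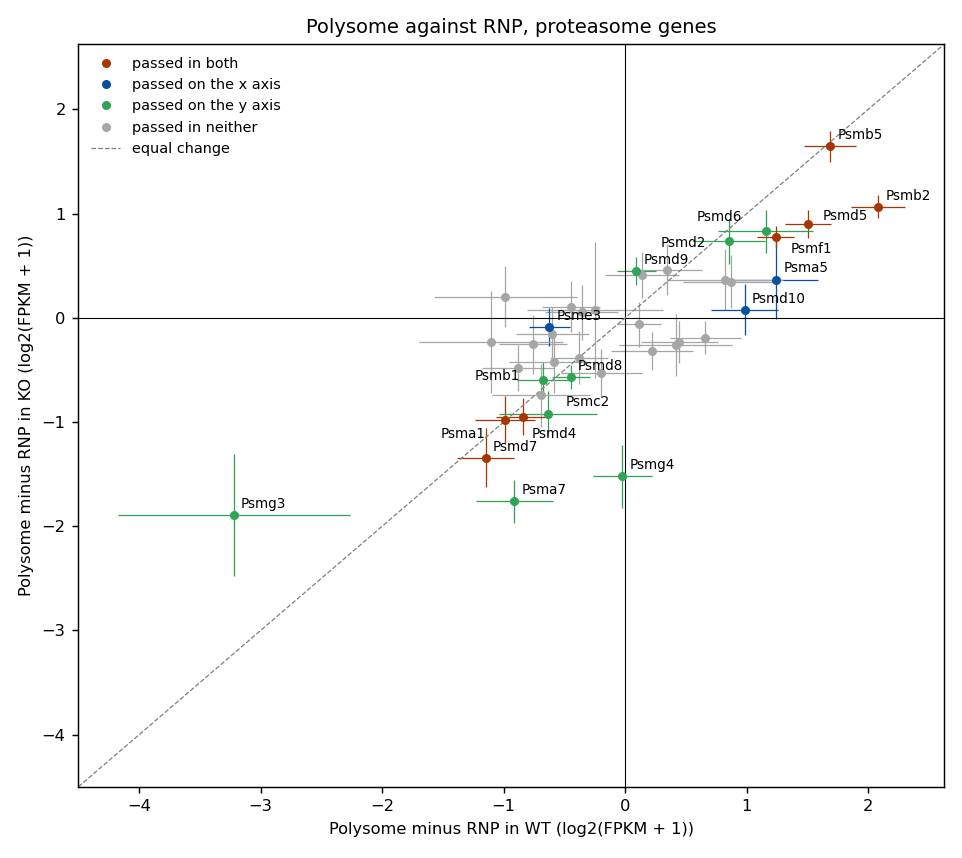
Each point is 1 of 40 proteasome genes, with its polysome minus RNP difference on the log2(FPKM + 1) scale in WT on the x axis and in KO on the y axis, and bars of 1 SE. Psmb2, Psmb5, Psmd5 and Psmf1 lie above 0 on both axes, and Psma1, Psmd4 and Psmd7 below 0 on both.

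Messages of the beta ring gave the largest shifts into polysomes. *Psmb2*, a non-catalytic subunit of the ring, was at 31.3, 26.7 and 19.9 FPKM in WT RNP, 114, 95.7 and 127 in WT polysomes, 72.0, 65.2 and 74.7 in KO RNP and 145, 151 and 150.2 in KO polysomes. Every polysome library was above every RNP library of its genotype. The difference was 2.08 ± 0.22 (adjusted p = 0.000648) in WT and 1.07 ± 0.11 (adjusted p = 0.000144) in KO. *Psmb5*, which carries the chymotrypsin-like site, was at 42.9, 44.3 and 42.4 FPKM in WT RNP, 194, 113 and 128 in WT polysomes, 33.3, 28.0 and 36.0 in KO RNP and 112, 99.5 and 97.5 in KO polysomes. Again the pools did not overlap in either genotype, and the difference was 1.69 ± 0.22 (adjusted p = 0.00162) in WT and 1.64 ± 0.15 (adjusted p = 5.93e-05) in KO.

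The other constitutive catalytic genes did not follow *Psmb5*. *Psmb6*, with the caspase-like site, was at 59.4, 30.0 and 28.7 FPKM in WT RNP, 66.9, 51.7 and 60.6 in WT polysomes, 32.8, 35.0 and 38.5 in KO RNP and 34.3, 30.8 and 27.9 in KO polysomes. WT RNP replicate 1 lay among the WT polysome libraries, and the pools differed by 0.66 ± 0.29 in WT and -0.19 ± 0.16 in KO. *Psmb7*, with the trypsin-like site, was at 13.2, 16.5 and 18.8 FPKM in WT RNP, 20.5, 17.0 and 25 in WT polysomes, 22.1, 19.5 and 17.9 in KO RNP and 33.1, 19 and 33.3 in KO polysomes, with differences of 0.34 ± 0.29 and 0.46 ± 0.24. *Psmb7* shares exon sequence with *Nek6* on the other strand. *Psmb1*, a structural beta gene, was at 72.5, 78.1 and 55.0 FPKM in WT RNP, 35.1, 43.6 and 48.5 in WT polysomes, 56.7, 58.0 and 64.9 in KO RNP and 30.9, 43.7 and 44.4 in KO polysomes. RNP libraries were higher in both genotypes without overlap, and the difference passed the test in KO (-0.60 ± 0.17, adjusted p = 0.0293) and was -0.68 ± 0.22 in WT.

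*Psmf1* encodes PI31, a protein known as an inhibitor of the isolated core. It was at 80.7, 66.8 and 83.9 FPKM in WT RNP, 172, 196 and 181 in WT polysomes, 126, 115 and 123 in KO RNP and 219.8, 188 and 220.2 in KO polysomes. Polysome libraries were above RNP libraries in both genotypes, by 1.24 ± 0.15 (adjusted p = 0.00126) in WT and 0.78 ± 0.11 (adjusted p = 0.000759) in KO. *Psmd5*, a chaperone of the 19S base, was at 33.6, 26.2 and 31.4 FPKM in WT RNP, 79.2, 97.0 and 87.3 in WT polysomes, 71.5, 65.9 and 61.3 in KO RNP and 114, 118 and 143 in KO polysomes. The pools were again separate, with differences of 1.50 ± 0.19 (adjusted p = 0.00155) in WT and 0.90 ± 0.13 (adjusted p = 0.00101) in KO.

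The other base chaperones were less uniform. *Psmd10*, or gankyrin, was at 36.0, 26.4 and 31.6 FPKM in WT RNP, 41.6, 75.7 and 76.8 in WT polysomes, 44.3, 49.1 and 38.2 in KO RNP and 52.3, 30.6 and 61.0 in KO polysomes. WT polysomes were above WT RNP in each library (0.98 ± 0.28, adjusted p = 0.0468), while the KO pools overlapped (0.08 ± 0.24). *Psmd9* was at 59.6, 62.1 and 57.8 FPKM in WT RNP, 66.5, 62.1 and 62.9 in WT polysomes, 64.3, 70.8 and 62.0 in KO RNP and 80.7, 102 and 89.0 in KO polysomes. Its KO polysome libraries were above the KO RNP libraries (0.45 ± 0.13, adjusted p = 0.0321), and the WT pools met at 62.1 FPKM (0.09 ± 0.16).

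In the alpha ring, 2 genes were called in WT and 2 in KO. *Psma1* was at 52.1, 39.2 and 46.1 FPKM in WT RNP, 18.8, 28.9 and 20.9 in WT polysomes, 39.5, 41.5 and 41.9 in KO RNP and 28.1, 19.9 and 14.9 in KO polysomes. RNP was higher in both genotypes without overlap, with differences of -0.99 ± 0.25 (adjusted p = 0.0309) in WT and -0.98 ± 0.23 (adjusted p = 0.011) in KO. *Psma7* was at 28.1, 16.2 and 22.5 FPKM in WT RNP, 10.8, 9.52 and 13.3 in WT polysomes, 27.7, 29.4 and 26.7 in KO RNP and 6.69, 8.66 and 7.34 in KO polysomes. Its KO pools were widely separate (-1.76 ± 0.20, adjusted p = 0.000257), and in WT, where the pools also did not overlap, the difference was -0.91 ± 0.32. *Psma5* went the other way, at 7.16, 4.63 and 6.05 FPKM in WT RNP, 14.4, 14.0 and 17.6 in WT polysomes, 5.88, 7.36 and 6.42 in KO RNP and 15.1, 4.79 and 8.83 in KO polysomes, with WT polysomes above WT RNP (1.24 ± 0.34, adjusted p = 0.0437) and overlapping KO pools (0.37 ± 0.37). The remaining alpha genes tested, *Psma2*, *Psma4* and *Psma6*, were not called in either genotype.

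**Figure D3:**
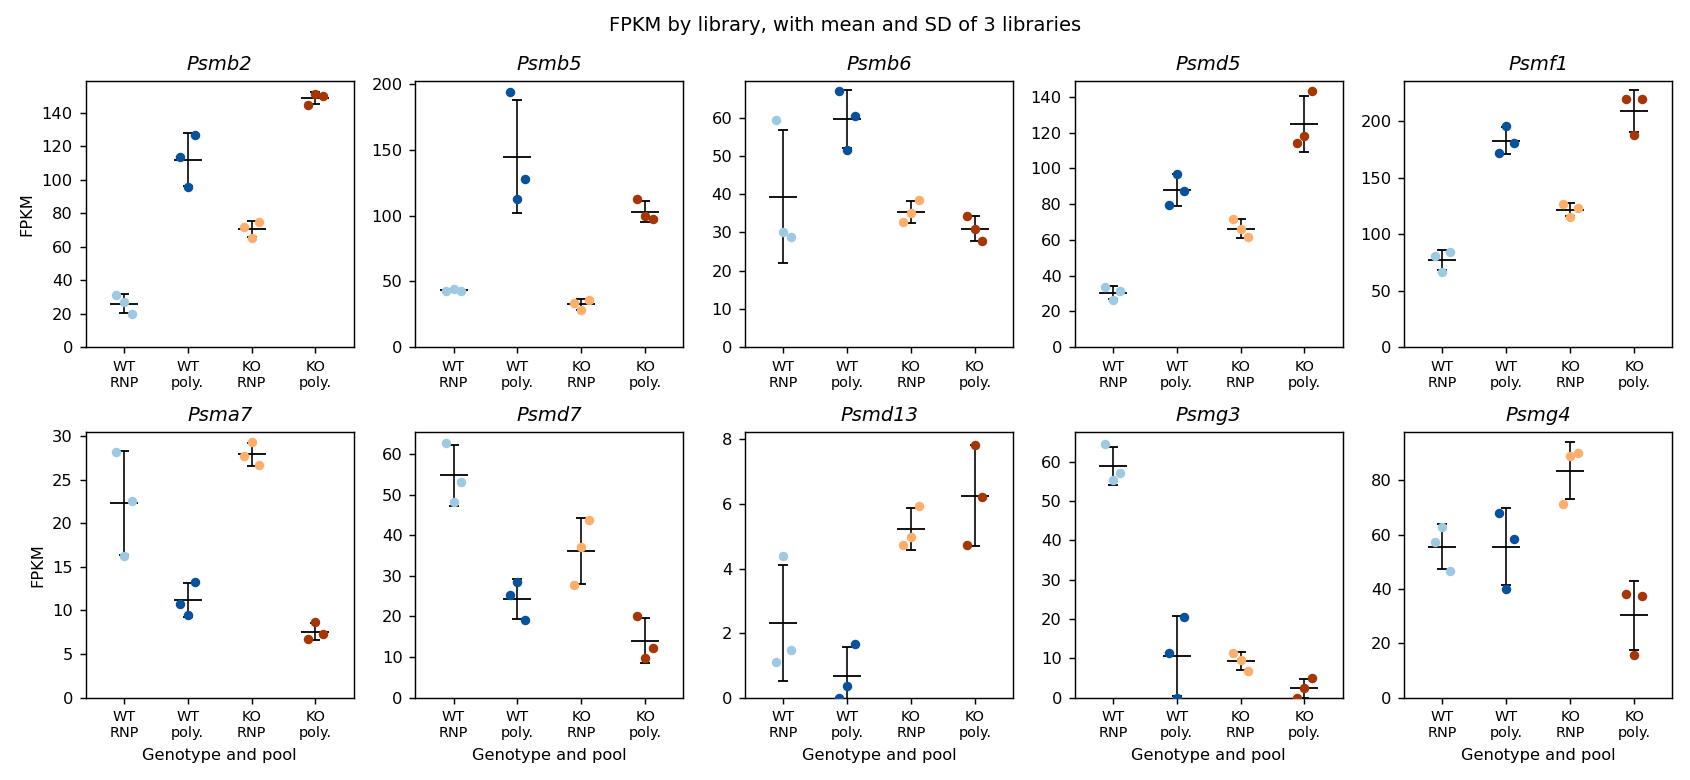
FPKM on the y axis for 10 proteasome genes in the 4 groups on the x axis, with 1 point per library and the mean and SD of 3 libraries in black. Psmb2, Psmb5, Psmd5 and Psmf1 are higher in polysomes in both genotypes, and Psmg3 is high in WT RNP alone among the 4 groups.

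Genes of the 19S particle moved in both directions. *Psmd7*, a lid subunit that pairs with the deubiquitinase *Psmd14*, was at 62.8, 48.2 and 53.1 FPKM in WT RNP, 25.3, 28.6 and 19.1 in WT polysomes, 27.7, 37.1 and 43.8 in KO RNP and 20.2, 9.78 and 12.1 in KO polysomes. RNP libraries were above polysome libraries in both genotypes, with differences of -1.15 ± 0.23 (adjusted p = 0.0135) in WT and -1.34 ± 0.28 (adjusted p = 0.00682) in KO. *Psmd4*, which binds ubiquitin chains, was at 119, 96.6 and 89.1 FPKM in WT RNP, 54.7, 43.5 and 72.8 in WT polysomes, 96.6, 93.5 and 93.9 in KO RNP and 64.4, 40.4 and 44.1 in KO polysomes, with the same separation (-0.84 ± 0.22, adjusted p = 0.0372 in WT and -0.95 ± 0.18, adjusted p = 0.00378 in KO). *Psmd8*, a lid subunit, was at 137, 135 and 111 FPKM in WT RNP, 96.6, 98.5 and 84.1 in WT polysomes, 169, 173 and 150.1 in KO RNP and 121, 105 and 104 in KO polysomes. Its pools did not overlap, and the difference passed the test in KO (-0.57 ± 0.12, adjusted p = 0.00556) and was -0.45 ± 0.16 in WT.

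*Psmd6*, another lid gene, went towards polysomes, at 9.63, 3.73 and 7.90 FPKM in WT RNP, 16.6, 16.5 and 15.1 in WT polysomes, 12.4, 11.4 and 12.2 in KO RNP and 25.4, 18.2 and 23.2 in KO polysomes. The pools were separate in both genotypes, with 1.16 ± 0.39 in WT and 0.83 ± 0.21 (adjusted p = 0.0152) in KO. *Psmd2*, a base subunit that docks ubiquitin-binding shuttle proteins, was at 10.7, 12.9 and 9.43 FPKM in WT RNP, 19.8, 18 and 24.4 in WT polysomes, 13.6, 10.9 and 13.3 in KO RNP and 26.1, 20.1 and 19.1 in KO polysomes, also with separate pools (0.85 ± 0.29 in WT and 0.73 ± 0.21, adjusted p = 0.0293 in KO). *Psmc2* was the only one of the 6 ATPase genes called between pools. It was at 13.8, 8.94 and 12.1 FPKM in WT RNP, 4.78, 6.46 and 10.9 in WT polysomes, 15.0, 18.1 and 16.1 in KO RNP and 8.77, 7.69 and 8.06 in KO polysomes, and KO RNP was above KO polysomes (-0.92 ± 0.22, adjusted p = 0.012), while in WT the pools overlapped (-0.63 ± 0.40). All 6 ATPase genes lay between -0.76 and 0.14 in WT and between -0.92 and 0.41 in KO.

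The activator gene *Psme3*, whose product caps the core in the nucleus, was at 121, 107 and 119 FPKM in WT RNP, 77.3, 62.2 and 86.0 in WT polysomes, 67.6, 92.8 and 67.9 in KO RNP and 56.2, 78.5 and 79.9 in KO polysomes. WT RNP was above WT polysomes (-0.62 ± 0.17, adjusted p = 0.0422), and the KO pools overlapped (-0.09 ± 0.18). *Psme4*, the gene of the large activator PA200, was at 13, 9.93 and 11.4 FPKM in WT RNP, 8.60, 12.4 and 8.82 in WT polysomes, 13.6, 13.8 and 12.2 in KO RNP and 7.73, 10.9 and 8.16 in KO polysomes, with -0.20 ± 0.33 in WT and -0.53 ± 0.23 in KO. Of the 20S chaperones, *Psmg4* was at 57.1, 63.0 and 46.6 FPKM in WT RNP, 68.0, 40.1 and 58.5 in WT polysomes, 71.4, 89.0 and 90.2 in KO RNP and 38.1, 15.7 and 37.4 in KO polysomes, so that KO RNP stood above KO polysomes (-1.52 ± 0.30, adjusted p = 0.00534) while the WT pools overlapped (-0.02 ± 0.24). *Psmg3*, its partner in alpha ring assembly, was at 64.4, 55.3 and 57.1 FPKM in WT RNP, 11.3, 0 and 20.4 in WT polysomes, 11.4, 9.45 and 6.83 in KO RNP and 0, 2.37 and 4.88 in KO polysomes. RNP libraries were above polysome libraries in both genotypes, with a difference of -1.89 ± 0.59 (adjusted p = 0.0387) in KO. The WT difference of -3.22 ± 0.95 had an adjusted p of 0.0556 and did not pass, with 1 WT polysome library at 0. *Psmg3* shares exon sequence with Gm26938 on the same strand.

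**Figure D4:**
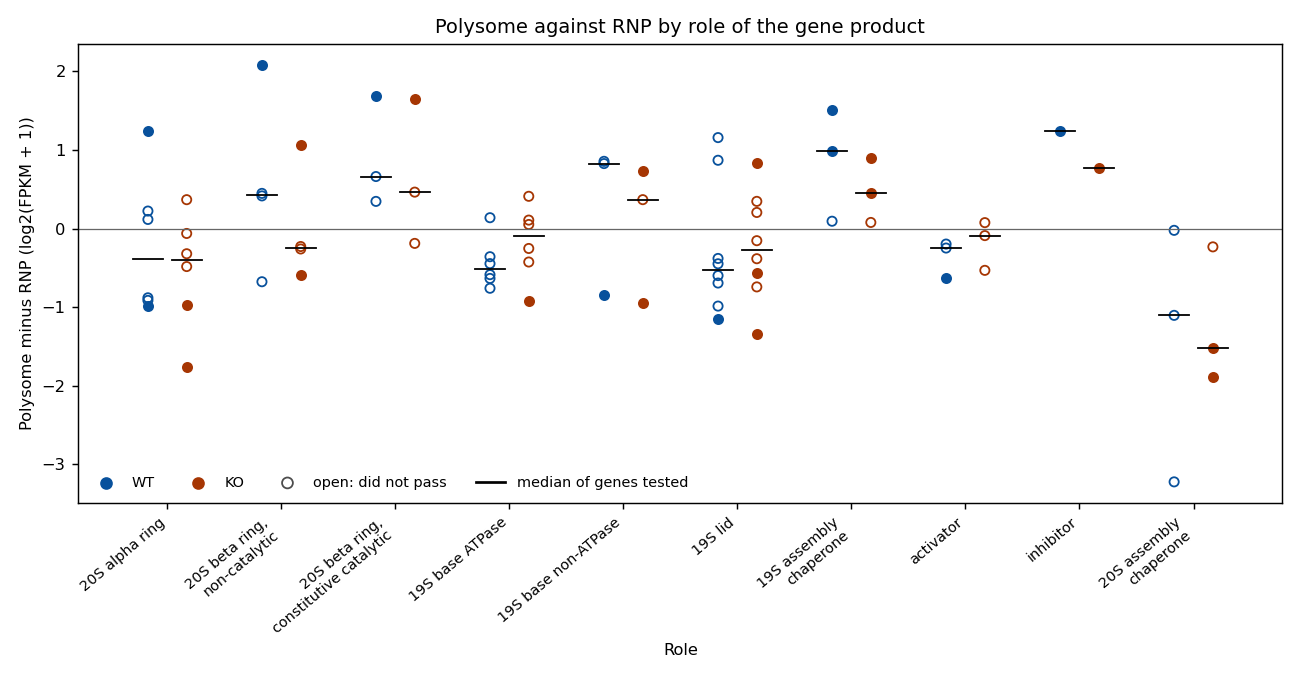
Polysome minus RNP difference on the log2(FPKM + 1) scale on the y axis for each proteasome gene tested, by role on the x axis, with WT in blue, KO in brown, filled points past the test and a black bar at the median. Medians lie above 0 in both genotypes for the constitutive catalytic genes, the 19S base genes other than ATPases, the 19S assembly chaperones and the inhibitor.

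By role, the median difference in WT was 0.66 for the 3 constitutive catalytic genes, 0.98 for the 3 base chaperones, 0.83 for the 3 base genes other than ATPases and 1.24 for the inhibitor. In KO these medians were 0.46, 0.45, 0.37 and 0.78. For the 4 non-catalytic beta genes the median was 0.43 in WT and -0.24 in KO. In WT it was -0.38 for the alpha ring, -0.52 for the ATPases, -0.52 for the lid, -0.25 for 3 activator genes and -1.10 for the 20S chaperones.

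The 16 members whose libraries are not listed one by one reached at most 77.8 FPKM (*Psma2*), and 14 of them could be tested between pools. In WT their differences ran from -1.10 (*Psmg1*) to 0.83 (*Psmd1*), and in KO from -0.74 (*Psmd11*) to 0.41 (*Psmc6*). Between genotypes, their changes ran from -0.93 (*Psmg1*) to 0.66 (*Psma4*) in RNP and from -0.60 (*Psmb3*) to 0.66 (*Psmc5*) in polysomes. By role, 4 of the 16 were alpha ring genes at 0 to 77.8 FPKM, 2 non-catalytic beta genes at 2.90 to 43.0, 4 ATPase genes at 5.76 to 61.8 and 3 lid genes at 3.09 to 56.6. *Psmd1* was at 1.34 to 6.44 FPKM, and the 20S chaperone genes *Psmg1* and *Psmg2* at 0 to 4.96.

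The 6 genes with a CPE had a median of -0.83 in WT, and the others -0.02. Over all genes these medians were -0.30 and -0.03. In KO they were -0.41 and -0.08 for the members, and -0.14 and 0.01 for all genes. Of the 6, *Psma5* and *Psmb3* lay above 0 in WT and the other 4 below. Only *Psma1* (-0.99) and *Psma5* (1.24) were called between the WT pools, in opposite directions. The difference between genes with and without a CPE was not tested. The Spearman rho of the WT difference with the length of the 3′ UTR was 0.01 over 41 members and 0.01 over all genes with a model. In KO it was 0.05 over 40 members and 0.11 over all genes with a model. With the length of the whole transcript, rho was 0.07 for members and 0.002 for all genes in WT. In KO these were 0.21 and 0.18.

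The WT calls of *Psmb2*, *Psmb5*, *Psmd5* and *Psmf1* and the KO calls of these and of *Psma1*, *Psma7*, *Psmd4*, *Psmd7*, *Psmd8* and *Psmg4* held under every alternative tried. Other calls were lost with 1 library left out, which also leaves fewer libraries for the test. Without WT RNP replicate 1 the WT call of *Psmd7* was lost (adjusted p = 0.0653 by limma). The WT calls of *Psma1*, *Psma5*, *Psmd10*, *Psmd4* and *Psme3* were each lost without any 1 of the 3 WT RNP libraries, with adjusted p up to 0.139, and also without WT polysome replicate 1 (all but *Psmd10*), 2 (all but *Psma1*) or 3 (*Psma1*, *Psma5* and *Psmd10*). In KO, the calls of *Psmb1*, *Psmd2*, *Psmd9* and *Psmg3* were each lost without any 1 of the KO RNP libraries (adjusted p up to 0.114), that of *Psmd2* also without KO polysome replicate 1, those of *Psmd9* and *Psmg3* without replicate 2, and that of *Psmd9* without replicate 3. With no intensity trend the WT calls of *Psma1*, *Psmd10*, *Psmd4* and *Psme3* and the KO calls of *Psmb1*, *Psmd9* and *Psmg3* were lost, and without the filter on low values the WT calls of *Psma5*, *Psmd10*, *Psmd4* and *Psme3* and the KO calls of *Psmb1* and *Psmg3*. The WT calls of *Psmd4* and *Psme3* were also lost after rescaling to the same median, that of *Psmd10* with quantile normalization or a pseudocount of 0.1, and the KO call of *Psmg3* with a pseudocount of 0.1. The calls of *Psmc2* and *Psmd6* were lost without KO RNP replicate 2 (0.0597 and 0.0542). The member counts fell to 5 in WT without any 1 WT RNP library and to 6 without WT polysome replicate 1, and in KO to 10 without KO RNP replicate 2.

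Between genotypes, the share of proteasome messages called in the RNP pool was near that of all genes. Of 41 members tested there, 5 were higher and 3 lower in KO than in WT, which is 19.5% beside 20.7% of all 9931 genes. The median change was 0.19 for the members and 0.05 for all genes, and 0.11 for the members without WT RNP replicate 3. In the polysome pool 1 was higher and 1 lower, 5% of 40 members beside 10.4% of all 9536 genes, with medians of 0.04 and 0.10. Without 1 of the 6 libraries the members' polysome median ran from -0.04 (without WT polysome replicate 1) to 0.13 (without KO polysome replicate 2), and it was -0.03 without KO polysome replicate 1, 0.07 and 0.09 without WT polysome replicates 2 and 3 and 0.10 without KO polysome replicate 3, so its sign was not stable. The changes in the 2 pools had the same sign in 30 of 40 members (75%, against 70.1% of 9100 genes).

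**Figure D5:**
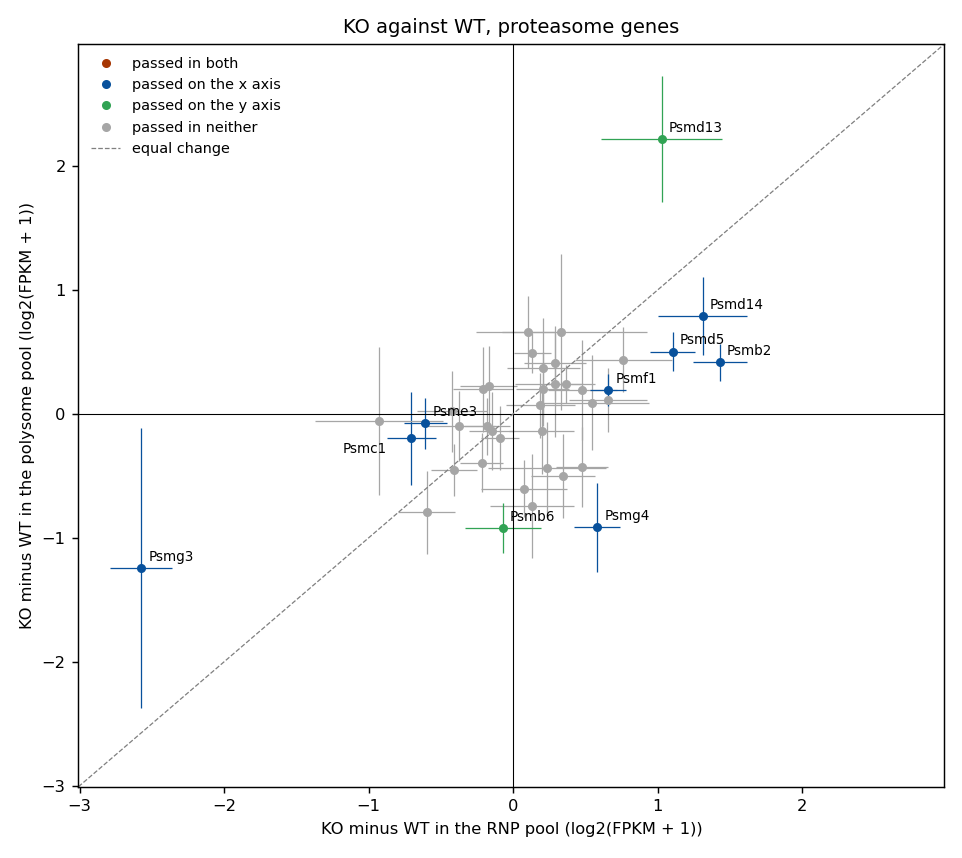
Each point is 1 of 40 proteasome genes, with its KO minus WT change on the log2(FPKM + 1) scale in the RNP pool on the x axis and in the polysome pool on the y axis, and bars of 1 SE. Psmg3 lies far to the left, Psmb2, Psmd14 and Psmd5 to the right, and Psmd13 at the top.

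The members that rose in KO RNP included 3 that were higher in polysomes in both genotypes. *Psmb2* rose by 1.43 ± 0.19 (adjusted p = 0.00103), from a WT range of 19.9 to 31.3 FPKM to a KO range of 65.2 to 74.7. *Psmd5* rose by 1.10 ± 0.16 (adjusted p = 0.00157) and *Psmf1* by 0.66 ± 0.13 (adjusted p = 0.00681). In the values given above, the KO RNP libraries of these 3 genes lay between the WT RNP and the WT polysome libraries. Their changes in polysomes were 0.41 ± 0.15, 0.50 ± 0.16 and 0.19 ± 0.13, with adjusted p of 0.118, 0.0819 and 0.386.

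*Psmd14*, the deubiquitinase that strips ubiquitin from substrates at the lid, was at 4.05, 4.02 and 6.73 FPKM in WT RNP, 8.04, 9.35 and 11.7 in WT polysomes, 17.6, 12.8 and 10.6 in KO RNP and 21.7, 14.8 and 16.1 in KO polysomes. All KO RNP libraries were above all WT RNP libraries (1.31 ± 0.31, adjusted p = 0.0164), and the polysome libraries were likewise separate, with a change of 0.79 ± 0.32 that did not pass (adjusted p = 0.155). *Psmg4* rose in KO RNP by 0.58 ± 0.16 (adjusted p = 0.0313), without overlap.

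The chaperone gene *Psmg3* had the largest change of any member in RNP, where it fell from 55.3 to 64.4 FPKM in WT to 6.83 to 11.4 in KO (-2.57 ± 0.22, adjusted p = 0.000109). In polysomes the change was -1.25 ± 1.13, and the groups overlapped, with 1 library of each genotype at 0. *Psmg1*, which acts in another chaperone pair, was at 4.96, 1.57 and 3.68 FPKM in WT RNP, 0, 2.11 and 1.32 in WT polysomes, 1.20, 1.93 and 0.604 in KO RNP and 1.60, 0 and 1.45 in KO polysomes, with changes of -0.93 ± 0.44 in RNP and -0.06 ± 0.60 in polysomes that did not pass. *Psmg2*, its partner, never exceeded 2.87 FPKM.

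*Psmc1*, an ATPase gene, was at 37.1, 30.3 and 33.8 FPKM in WT RNP, 15.2, 17.4 and 27.8 in WT polysomes, 19.9, 20.1 and 20.8 in KO RNP and 26.8, 15.1 and 11.7 in KO polysomes. KO RNP was below WT RNP in each library (-0.70 ± 0.17, adjusted p = 0.0184), and the polysome libraries overlapped (-0.20 ± 0.37). *Psme3* also fell in RNP (-0.61 ± 0.15, adjusted p = 0.0188), again without overlap, and stood at -0.08 ± 0.21 in polysomes.

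In polysomes the lid gene *Psmd13* rose by 2.22 ± 0.51 (adjusted p = 0.0294). It was at 1.10, 4.39 and 1.48 FPKM in WT RNP, 0, 0.349 and 1.67 in WT polysomes, 4.72, 4.99 and 5.95 in KO RNP and 4.71, 7.84 and 6.21 in KO polysomes, so the WT polysome values were close to 0 and the KO values low. The polysome change was 0.99 with a pseudocount of 5 and 3.86 with 0.1, and the call was lost with 0.1 (adjusted p = 0.0751 by limma) and without the filter on low values (0.0794). In RNP its change was 1.03 ± 0.42. *Psmd13* shares exon sequence with *Sirt3* on the other strand. The catalytic gene *Psmb6* fell in polysomes (-0.92 ± 0.20, adjusted p = 0.0233), with all KO libraries below all WT libraries, and was at -0.07 ± 0.27 in RNP. *Psmb5* was at -0.45 ± 0.21 in polysomes and -0.41 ± 0.16 in RNP, with adjusted p of 0.211 and 0.1.

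*Psma7* lies 908 bases from *Lsm14b* on chromosome 2 (GRCm38, 180036374 to 180042433, minus strand), in the opposite orientation, so that the ends of the genes face each other. Its change in KO was -0.50 ± 0.34 in polysomes and 0.34 ± 0.22 in RNP, and neither passed (adjusted p = 0.388 and 0.313). The set-apart gene *Psmc3ip* was at 7.74, 6.0 and 5.83 FPKM in WT RNP, 16.5, 9.23 and 14.1 in WT polysomes, 6.11, 2.56 and 9.62 in KO RNP and 4.88, 3.25 and 1.19 in KO polysomes and fell in polysomes (-1.88 ± 0.49, adjusted p = 0.0442).

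The RNP calls of *Psmb2*, *Psmd5* and *Psmg3* held under every alternative tried. That of *Psmf1* held without any 1 library (adjusted p up to 0.0350) and was lost with no intensity trend (0.0520), as were those of *Psme3* and *Psmg4*, and that of *Psmg4* also without the filter on low values. The calls of *Psmd14*, *Psmc1*, *Psme3* and *Psmg4* were lost with 1 library left out, which also leaves fewer libraries for the test. Their changes kept their sign, and that of *Psmc1* stayed between -0.78 and -0.64. *Psmd14* was lost without KO RNP replicate 1 or 2 (adjusted p up to 0.0814). *Psmc1* was lost without WT RNP replicate 1 or any 1 of the KO RNP libraries, *Psme3* without WT RNP replicate 1 or KO RNP replicate 1 or 3, and *Psmg4* without WT RNP replicate 1 or 3 or KO RNP replicate 2 or 3, with adjusted p up to 0.0692, 0.0765 and 0.115. In polysomes, *Psmb6* was lost without WT polysome replicate 1 or 3 or KO polysome replicate 2 or 3 (up to 0.0925), and *Psmd13* without WT polysome replicate 1 or 2 or any 1 of the KO polysome libraries (up to 0.125). The RNP count fell to 5 without WT RNP replicate 1 or any 1 of the KO RNP libraries. The polysome count fell to 0 without WT polysome replicate 1, KO polysome replicate 2 or KO polysome replicate 3, and to 1 without any 1 of the other 3.

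The summed level of markers of granulosa cells, which surround the oocyte, was higher in KO than in WT. The 10 markers summed to 31.3 to 37.0 FPKM in WT RNP, against 43.2 to 65.3 in KO RNP, and to 27.2 to 75.5 in WT polysomes and 79.2 to 103 in KO polysomes, so genotypes did not overlap in either pool. Of 6 markers tested in polysomes, *Inha*, *Inhba* and *Fshr* passed (3.27, 2.94 and 2.22), and *Nr5a2* (1.13), *Kitl* (-0.11) and *Cyp19a1* (-0.54) did not. Of 4 tested in RNP, *Inha* passed (2.79), and *Fshr* (0.88), *Cyp19a1* (0.38) and *Nr5a2* (0.15) did not. *Foxl2* was at 0 in WT RNP, WT polysomes and KO polysomes. Of the 2 leukocyte markers tested, *H2-Aa* fell in both pools (-2.08 in polysomes and -1.72 in RNP), and *Cd68* did not pass (-0.15 in polysomes and 1.04 in RNP). The sum of the 12 oocyte markers was also higher in KO, without overlap in either pool. In RNP it was 8052 to 8360 FPKM in WT and 9395 to 9733 in KO. In polysomes it was 25560 to 27710 in WT and 28850 to 31240 in KO. *Gdf9* weighed heavily in the polysome sum, with means of 15410 FPKM in WT and 17340 in KO. Its own change did not pass in polysomes (0.17) and passed in RNP (0.52). In polysomes 4 of the 12 rose and 3 fell, 58.3% called beside 10.4% of all genes. In RNP 5 rose and 2 fell, 58.3% beside 20.7%. Theca and stroma markers summed to at most 2.58 FPKM and erythroid markers to at most 0.468. The part of these cells in the KO against WT results was not tested.

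The polysome-to-RNP ratio compares the KO against WT change in polysomes with that in RNP. It is a difference of shares and does not show that a message moved between pools. By limma, 0 of 42 members differed, beside 0.237% of all 10949 genes (26 genes). At an unadjusted p under 0.05 there were 7 members, and 1220 of all genes (11.1%). All 7 had a lower ratio in KO, and of the 1220 genes 50.4% did. The median of the members was -0.11 and that of all genes 0.04. The former was -0.02 without KO polysome replicate 2, -0.03 without WT RNP replicate 3, -0.04 without KO polysome replicate 3, -0.07 without KO RNP replicate 3 and -0.25 without KO polysome replicate 1.

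*Psmb2* came nearest to the threshold, with a ratio change of -1.01 ± 0.24 (adjusted p = 0.126) and a 95% interval of -1.53 to -0.50. It was chosen after its values were seen, as were *Psmg4*, *Psmd5* and *Psmf1*. *Psmg4* changed by -1.50 ± 0.42 (adjusted p = 0.188), *Psmd5* by -0.60 ± 0.22 (adjusted p = 0.31) and *Psmf1* by -0.46 ± 0.17 (adjusted p = 0.332). *Psma7* (-0.85 ± 0.35), *Psmb6* (-0.85 ± 0.35) and *Psmd10* (-0.91 ± 0.39) were the other 3 of the 7. For *Psmb5* the ratio change was -0.04 ± 0.27, with a 95% interval of -0.62 to 0.53. None of these is a call, and every value of the ratio rests on the same 12 libraries as the comparisons above.

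Other genes of the pathway were counted as lists, and in the ratio 0 genes of these lists were called by limma, with 4 at an unadjusted p under 0.05. Of 13 further proteasome-associated genes tested in each comparison, *Pomp*, the maturation factor of the core, was higher in polysomes in WT (1.42 ± 0.23, SE) and KO (1.40 ± 0.15). Its FPKM was 24.8, 33.2 and 33.1 in WT RNP, 70.5, 75.7 and 104 in WT polysomes, 33.5, 38.6 and 34 in KO RNP and 102, 105 and 79.8 in KO polysomes. *Ubfd1*, which has a ubiquitin-like domain, and *Fbxo7*, whose product binds PI31, were also higher in polysomes (1.16 and 1.16 in WT, 2.07 and 1.45 in KO), and these 3 were the WT calls of the list (23.1%, beside 14.7% of all genes). In KO, *Akirin2* (-0.52), which carries proteasomes into the nucleus, and the ubiquitin ligase gene *Ube3c* (-1.17) were higher in RNP, which made 38.5% called beside 29.2%. Between genotypes, *Usp14*, a deubiquitinase of the 19S particle, rose in KO RNP (0.90) and *Shfm1*, the gene of a small lid subunit, fell (-0.69), 15.4% of the list beside 20.7% of all genes, and 0 of 13 were called in polysomes, with 1 at an unadjusted p under 0.05.

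Among 12 genes that regulate proteasome transcription, 2 of 12 tested were called in RNP between genotypes (16.7%, beside 20.7% of all genes). *Nfe2l1*, the transcription factor that raises proteasome genes when activity is short, was at 104, 108 and 115 FPKM in WT RNP and 70.8, 61.0 and 75.3 in KO RNP, without overlap (-0.66 ± 0.13, adjusted p = 0.00661). *Ngly1*, the enzyme that processes its product, rose (0.77 ± 0.22, adjusted p = 0.0346). In polysomes 0 of 11 were called by limma and 0 had an unadjusted p under 0.05, beside 10.4% and 26.3% of all genes. Between pools, *Nfya* was higher in RNP in WT (-1.57) and KO (-1.66), and *Maff* in KO (-1.13), which made 8.33% of the list in WT and 18.2% in KO, beside 14.7% and 29.2% of all genes.

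Of 14 tested genes for ubiquitin and substrate delivery, 1 rose in KO polysomes (7.14%, beside 10.4% of all genes called). This was *Vcp*, the ATPase that extracts substrates, at 7.66, 6.78 and 6.06 FPKM in WT RNP and 17.6, 14.7 and 18.7 in KO RNP, and at 21.3, 23.7 and 20.2 in WT polysomes and 63.2, 43.1 and 57.0 in KO polysomes. It rose in both pools (1.20 ± 0.24 in RNP and 1.27 ± 0.22 in polysomes). The ubiquitin gene *Ubb* also rose in RNP (0.58). Between pools, *Vcp* and *Ubb* were higher in polysomes in WT (1.54 and 0.66). In KO, *Vcp* (1.61), *Ubb* (0.36), *Uba6* (1.74), *Nploc4* (0.75) and *Ufd1l* (1.52) were higher in polysomes and *Ubqln2* (-0.87) in RNP, 42.9% of the 14 beside 29.2% of all genes.

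Of 10 genes of interferon response and antigen processing, 3 could be tested in each comparison. *Irf1*, a transcription factor that drives the immunoproteasome genes, was at 224, 198 and 207 FPKM in WT RNP and 78.7, 75.2 and 77.0 in KO RNP (-1.43 ± 0.10, adjusted p = 5.11e-05). It also fell in polysomes (-1.05 ± 0.19, adjusted p = 0.0125). *B2m* was higher in RNP than in polysomes in WT (-1.31) and KO (-1.14), and *Irf1* in WT (-0.67).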

How the data were processed

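Polysome and RNP pools of GV-stage oocytes were sequenced by the authors after Smart-seq2 amplification. Per the submitters' processing notes, reads were mapped to mm10 with TopHat2 2.0.13, and FPKM values were calculated by the authors with Cufflinks 2.2.1, one per gene symbol and library, for 24259 symbols. The annotation release is not given in the sources used here. The tools listed also include Cuffnorm, without a version, and whether it rescaled the deposited values was not examined. The deposited FPKM hold no read counts. The table also holds the authors' Cuffdiff comparisons (log2 changes, p-values and q-values), which were not used here. The densest sucrose and the library kit differ between the labels and the paper.

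Genes that reached 1 FPKM in 3 or more libraries of a comparison were tested with limma 3.58.1 (R 4.3.3) on log2(FPKM + 1), with an intensity trend, no block and Benjamini-Hochberg adjustment over all genes at 0.05. A pseudocount of 1 understates the change of low genes. The 5 comparisons were KO against WT in each pool, polysome against RNP in each genotype, and the interaction over all 12 libraries. The first 4 were fitted on their own 6 libraries. Lists were described by counts and medians only, and some results are not reported here. Values in each library are given for members called in any comparison and for the catalytic, activator and *Psma8* genes, and the other members are given by ranges. Members and lists were chosen with earlier results of these data known. Gene positions, transcripts and 3′ ends came from GENCODE M21 (GRCm38). Depth was estimated on the assumption of an effective length 200 bases below the annotated one, and at these depths values near 0 are imprecise. The script was tested on simulated data. Alternatives were pseudocounts of 0.1 and 5, no filter, a filter at 5 FPKM, rescaling to the same median, quantile normalization, a replicate block, no intensity trend, all rows matching the letters, and each library left out. Python 3.11.15, pandas 2.3.3, numpy 2.4.6, scipy 1.17.1 and matplotlib 3.10.9 were used.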

Additional observations from a re-analysis of the deposited data

Results flagged for a closer look

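*Psmg4*, the gene of a 20S assembly chaperone, stood at opposite sides of WT in the pools. Each KO RNP library was above each WT RNP library, and each KO polysome library was below each WT polysome library. The RNP change of 0.58 passed the test (adjusted p = 0.0313 by limma), a call that was lost under 7 of 14 alternatives, and the polysome change of -0.92 did not (adjusted p = 0.148). The polysome-to-RNP ratio changed by -1.50 ± 0.42 (SE), with an adjusted p of 0.188 by limma, so the test of the difference between pools did not pass. Over its alternatives the adjusted p ran from 0.129 to 0.403.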

How the results depend on the processing

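With 1 library left out, the median of the proteasome genes ran from -0.04 to 0.13 between genotypes in polysomes and from 0.11 to 0.26 in RNP, from -0.21 to -0.08 between pools in WT and from -0.26 to -0.09 in KO, and from -0.25 to -0.02 for the ratio. For the 36 calls of a gene in a comparison, 417 of 521 alternatives kept the call, 104 lost it and 0 reversed its direction. Other members gained calls: the RNP count became 10 with the filter at 5 FPKM (*Psmd7* and *Psmd8* added) and 9 after rescaling to the same median (*Psmd8*), and *Psmg3* was called between the WT pools with a pseudocount of 5, the filter at 5 FPKM, quantile normalization and the replicate block. For the polysome pool between genotypes, the count of 2 members became 1 with a pseudocount of 0.1, without the filter on low values, with a filter at 5 FPKM, with the replicate block and with no intensity trend. It was 0 to 1 with 1 library left out, and 0 without KO polysome replicate 2 after rescaling to the same median, an alternative chosen after seeing the data. All genes called fell from 989 to 545 without the filter, 508 with no trend and 383 without KO polysome replicate 3. The RNP count of 8 became 5 with no intensity trend and was 5 to 9 with 1 library left out. The WT pool count of 10 became 6 without the filter, 6 with the replicate block and 6 with no intensity trend, and was 5 to 9 with 1 library left out. The KO pool count of 16 was 10 to 16 with 1 library left out. Counting all rows that match the letters added *Psmc3ip* and gave 3 in the polysome comparison.

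The study names no pairing of libraries by replicate number. The deviations of each library from its group mean were compared between same-numbered libraries of different groups. Their correlations ran from -0.021 to 0.026 over 10949 genes, so no shared deviation was seen. That does not show that the libraries are unpaired. With the replicate block, the counts were 1 and 7 between genotypes in polysomes and RNP, 6 and 16 between pools in WT and KO, and 0 for the ratio. *Psmb6* in polysomes (adjusted p = 0.0519) and *Psmg4* in RNP (0.0504) were no longer called between genotypes. Values near 0, such as those of *Psmd13* in WT polysomes, are imprecise, and the cause of these moves was not tested.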

Other observations

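By role, the change between genotypes in the RNP pool had a median near 0 for the alpha ring (-0.01 over 6 genes), the ATPases (-0.05 over 6, with *Psmc1* lower) and the constitutive catalytic genes (-0.07 over 3). It was 0.33 over 8 lid genes, with *Psmd14* higher, and 0.48 over 3 base chaperones, with *Psmd5* higher. In polysomes the medians were -0.27 for the alpha ring, 0.20 for the ATPases, 0.24 for the lid and 0.49 for the base chaperones. They were -0.45 for the constitutive catalytic genes, with *Psmb6* lower, and -0.92 over 3 chaperones of the core. These medians are descriptions of few genes and were not tested.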
